A study of Mus musculus with 11 samples.

Results

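Enteroendocrine cells are scattered hormone-secreting cells of the gut epithelium, and 10 of their products are described here in the distal ileum of mice treated with dextran sodium sulfate. The genes were taken by symbol from the count table, in which all 10 occurred among 31168 genes. They are the peptide hormone genes Gcg, Pyy, Nts, Sct and Sst, the serotonin enzyme Tph1, the granule proteins Chga and Chgb, and the processing enzymes Pcsk1 and Cpe. There were 11 libraries of total RNA from 2 cm of tissue, 6 WT and 5 dIEC. Both groups carried floxed H2-Ab1 (H2-Ab1 fl/fl), which encodes the I-A beta chain of MHC class II, and both received dextran sodium sulfate, which injures the intestinal lining. WT mice were Villin:Cre- and dIEC mice Villin:Cre+, the villin promoter driving Cre recombinase in intestinal epithelial cells. The design text writes Cre- for both groups, so the groups follow the genotype label of each library. Strain, age, sex, cage, litter, dose and duration of treatment are not stated in the sources used here. No label says how the mice were housed or related, so the p-values speak only of the spread among these libraries. The comparison asks how the ileum differs between mice with and without deletion of a class II gene in the epithelium.

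Enteroendocrine cells sense nutrients, microbial products and stretch, and release hormones toward blood vessels and nerve endings. In the ileum, L cells make peptides cut from proglucagon (the product of Gcg) together with peptide YY, N cells make neurotensin, S cells secretin, D cells somatostatin, and enterochromaffin cells serotonin. Peptide hormones are made as longer precursors, packed into dense granules with chromogranins, cut by prohormone convertases and trimmed by carboxypeptidase E. Several of these genes, Cpe and Sst among them, are also active in the neurons of the gut wall, which a whole piece of ileum contains.

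The library totals were 6603965 to 9681698 counts, of which protein-coding genes held 22.9 to 37.3%, and the 10 genes together held 446 to 1151 counts in a library. Values below are CPM, counts per 1000000 of the library total multiplied by its TMM factor, a scaling that centres the bulk of genes. H2-Ab1, the targeted gene, was at 47.2 to 111 CPM in WT (median 87.6) and at 16.8 to 39.0 CPM in dIEC (median 23.0), with no overlap between groups. The ileal markers Fabp6 and Slc10a2, a bile acid binding protein and the ileal bile acid transporter, averaged 156 and 145 CPM in WT and 198 and 225 CPM in dIEC, while the colonic carbonic anhydrase Car1 had at most 26 counts in a library. Of 6 tested genes of gut position 5 had log2 fold changes above 0 (median 0.41), Guca2a, the precursor of guanylin, being at 0.47 (SE 0.20, edgeR adjusted p = 0.444). WT replicate 8 stood apart from the other WT libraries: of all 11 it had the highest epithelial score (7.85, the mean log2 CPM of 14 shared epithelial genes) and the lowest enteric neuron score (1.68, the mean log2 CPM of 13 genes). Where results were also computed without it, both are given.

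Promoter sequence is shown for Gcg and Pcsk1, the pair of genes whose levels followed each other most closely over the libraries, and for Chga, the granule gene they were set against. Each stretch has 100 bases upstream of the RefSeq start (RefSeq, build GRCm38.p6), read 5′ to 3′ on the strand of the gene. Those of Gcg and Chga end at the base before the start and that of Pcsk1 ends 31 bases before it. They lie at chr2:62483654-62483753 on the minus strand (Gcg), chr13:75089726-75089825 on the plus strand (Pcsk1) and chr12:102554841-102554940 on the plus strand (Chga). Capitals mark matches on either strand to TATAAA or CAGATG in Gcg, to TGACGTCA or TGACG in Pcsk1, and to GGGCGG or TGACG in Chga.
Gcg: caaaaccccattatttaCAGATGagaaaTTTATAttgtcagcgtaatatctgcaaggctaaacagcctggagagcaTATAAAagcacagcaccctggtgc
Pcsk1: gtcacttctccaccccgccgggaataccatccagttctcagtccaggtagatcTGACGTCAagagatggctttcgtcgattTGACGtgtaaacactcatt
Chga: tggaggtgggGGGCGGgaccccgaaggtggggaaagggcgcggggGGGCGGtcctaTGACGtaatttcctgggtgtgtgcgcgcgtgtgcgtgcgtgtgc

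TATAAA is the core of the TATA box, and in Gcg it began 24 bases upstream of the start. CAGATG is an E-box, a site type bound by basic helix-loop-helix factors. TGACGTCA is the cyclic AMP response element and TGACG the shorter form contained in it. GGGCGG is a GC box. Over the 250 bases upstream of the start, both strands searched, TGACGTCA occurred in Pcsk1, Chgb and Sst, and in 1.55% of 32851 RefSeq promoters. TGACG occurred in these 3 genes and in Chga, Nts and Tph1, against 17.8% of promoters. TATAAA and CAGATG were each found in Gcg and Sct, against 12.4% and 14.4%. GGGCGG was found in Chga, Chgb, Sct and Tph1, against 32.7%. In all, 9 of the 10 genes matched the promoter table, and a match describes letters, not a bound site.

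None of the 10 genes passed the test over all genes. In the edgeR quasi-likelihood test with Benjamini-Hochberg adjustment, 1 of 15911 genes passed an adjusted p of 0.05, or 0.00628%, and it was not one of these. All 10 passed the filter on low counts. DESeq2 called 11 genes, or 0.0691%, again with 0 of the 10. At an unadjusted p under 0.05, 1 of the 10 was higher in dIEC (Pcsk1), where 4.86% of all genes were, and 1 was lower (Cpe), where 5.79% of all genes were. Groups did not overlap in CPM for 0 of the 10 genes, against 0.566% of all genes. The log2 fold change, dIEC against WT, was above 0 for Gcg, Pcsk1 and Nts and below 0 for the other 7, with a median of -0.17 beside -0.01 over all genes tested. In whole tissue, fewer cells of a type and less RNA per cell cannot be told apart, here and in every value below.

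**Figure D1:**
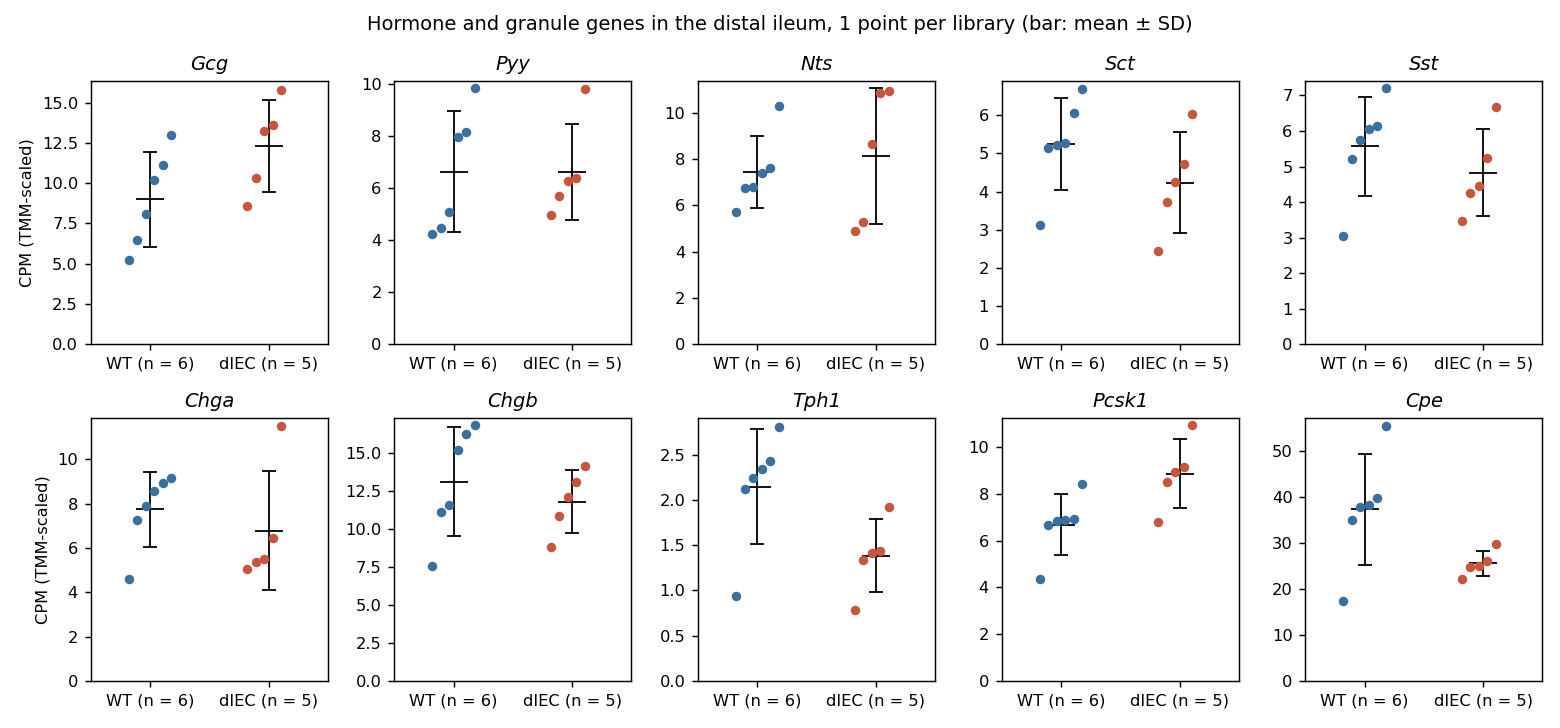
TMM-scaled CPM of the 10 genes, 1 point per library, WT (n = 6, blue) and dIEC (n = 5, red), with horizontal bars at the mean and whiskers of 1 SD; each vertical axis starts at 0. The groups overlap in every panel: 4 of 5 dIEC libraries lie above the highest WT library for Pcsk1, and 5 of 6 WT libraries lie above the highest dIEC library for Tph1 and for Cpe.

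Proglucagon RNA was higher on average in dIEC, with a 95% interval that includes no difference. Gcg, the source of the L cell hormones GLP-1 and GLP-2, was at 5.22 CPM in the lowest WT library, 9.12 in the median and 12.97 in the highest. The dIEC libraries had 15.8, 8.60, 10.3, 13.2 and 13.6 CPM in replicates 1, 3, 5, 6 and 11. All 5 lay above the 3 lowest WT libraries, and 3 lay above the highest. Mean CPM was 9.01 ± 2.95 over 6 WT libraries (SD) and 12.3 ± 2.85 over 5 dIEC libraries, a fold of 1.36 (log2 0.45, SE 0.22, 95% interval -0.03 to 0.92). With library size alone, which moved the median of all genes to -0.22, the log2 fold change of Gcg was 0.21. Neither edgeR (adjusted p = 0.480) nor the two-sided exact permutation test on CPM (p = 0.0909) passed. The exact tests use all 462 assignments of the group labels and cannot go below 0.00433.

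Peptide YY, which slows gut transit and reduces appetite and comes from the same L cells, had nearly the same average in both groups. Pyy was at 4.23, 6.51 and 9.82 CPM in the lowest, median and highest WT library, and at 9.78, 6.37, 6.28, 5.67 and 4.95 CPM in dIEC replicates 1, 3, 5, 6 and 11. The dIEC range lay wholly inside the WT range. The log2 fold change was -0.01 with a 95% interval of -0.53 to 0.51 (edgeR adjusted p = 0.993). A difference of up to about that size in either direction is therefore not excluded by these libraries.

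Neurotensin, a peptide that promotes fat uptake, was more spread in dIEC than in WT. Nts ran from 5.72 through a median of 7.08 to 10.3 CPM in WT. In dIEC, replicates 1 and 5 had 4.89 and 5.27 CPM, below every WT library, and replicates 3 and 11 had 10.9 each, above every WT library, with replicate 6 at 8.66. The log2 fold change was 0.16 (SE 0.22, edgeR adjusted p = 0.815), and the difference in spread was not tested.

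Secretin and somatostatin were each lower on average in dIEC, with 95% intervals of the log2 fold change that include 0 (-0.75 to 0.21 and -0.68 to 0.22). Sct, whose product stimulates bicarbonate secretion, was at 3.12, 5.25 and 6.68 CPM in the lowest, median and highest WT library and at 3.74, 6.03, 2.43, 4.72 and 4.26 CPM in dIEC replicates 1, 3, 5, 6 and 11. Only dIEC replicate 5 lay below the WT range, and its value rests on 12 counts. The log2 fold change of Sct was -0.27 (SE 0.22, edgeR adjusted p = 0.6498). Sst, an inhibitory hormone of D cells that enteric neurons also make, was at 3.04, 5.91 and 7.20 CPM in WT and at 4.46, 5.25, 6.69, 3.46 and 4.26 CPM in dIEC, all within the WT range. Its log2 fold change was -0.23 (SE 0.21, edgeR adjusted p = 0.692).

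Tph1, the rate-limiting enzyme of serotonin synthesis in enterochromaffin cells, was lower on average in dIEC. WT libraries ran from 0.937 through a median of 2.29 to 2.81 CPM, and dIEC libraries had 1.44, 1.34, 1.42, 0.787 and 1.92 CPM in replicates 1, 3, 5, 6 and 11. The groups were separated except for WT replicate 4, the lowest WT library: the other 5 WT libraries, at 2.12 CPM or more, lay above every dIEC library. Mean CPM was 2.15 ± 0.637 over 6 WT libraries (SD) and 1.38 ± 0.404 over 5 dIEC libraries, a fold of 0.655 (log2 -0.61, SE 0.29, 95% interval -1.23 to 0.01). The test did not pass (edgeR p = 0.0524, adjusted p = 0.472), nor did the two-sided exact permutation test (p = 0.0563). Tph1 had 5 to 25 counts in a library, and counting alone gives a coefficient of variation of 26.5% at its mean of 14.3 counts, close to the 29.7% seen within WT and 29.2% within dIEC. Leaving out WT replicate 4 gave a log2 fold change of -0.78 (edgeR adjusted p = 0.713).

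Mast cells also use Tph1. Of 12 listed mast cell genes, 10 were in the table, and only Kit, which other cells of the gut wall also make, passed the filter. Summed over the list they were at 29.1 to 44.8 CPM in WT and 25.3 to 33.4 in dIEC, of which Kit alone was 33.3 ± 4.67 and 26.8 ± 3.70. The mucosal mast cell protease Mcpt1 reached 27 counts in a library, Mcpt2 and Hdc 12 each and Gata2 9, while Cpa3, Cma1, Mcpt4, Fcer1a and Tpsb2 reached 1 to 3. The part of mast cells in the level of Tph1 was not tested. The serotonin transporter Slc6a4, which enterocytes use to clear serotonin, was at 8.55 ± 2.58 CPM in WT and 15.1 ± 6.70 in dIEC (log2 fold change 0.83, SE 0.28, edgeR adjusted p = 0.427, two-sided exact permutation p = 0.0649). The serotonin receptor Htr3a, found on gut neurons, was at 1.82 ± 0.576 CPM in WT and 0.969 ± 0.499 in dIEC (log2 fold change -0.92, SE 0.33, edgeR adjusted p = 0.427, exact permutation p = 0.0433). Slc6a4 and Htr3a were picked by an unadjusted edgeR p under 0.05, so their exact p gives no separate support.

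The chromogranins, acidic proteins that pack hormones into dense granules and serve as general markers of enteroendocrine cells, did not separate the groups. Chga was at 4.58, 8.23 and 9.16 CPM in the lowest, median and highest WT library. In dIEC, replicate 1 had 11.5 CPM, the highest of all libraries, and replicates 3, 5, 6 and 11 had 5.36, 5.07, 5.51 and 6.46. Those 4 lay below every WT library except replicate 4. With all libraries the log2 fold change of Chga was -0.18 (SE 0.23, edgeR adjusted p = 0.784), and without dIEC replicate 1 it was -0.46 (SE 0.19, edgeR adjusted p = 0.639). Chgb ran from 7.60 through a median of 13.4 to 16.9 CPM in WT and was at 13.1, 10.8, 14.2, 12.1 and 8.79 CPM in dIEC replicates 1, 3, 5, 6 and 11, all inside the WT range (log2 fold change -0.16, SE 0.19, edgeR adjusted p = 0.771).

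Pcsk1, the convertase that cuts prohormones in enteroendocrine cells, was higher on average in dIEC. It was at 4.38 CPM in the lowest WT library, 6.85 in the median and 8.42 in the highest, 4 of the 6 lying between 6.66 and 6.92. The dIEC libraries had 10.9, 6.82, 8.92, 9.13 and 8.52 CPM in replicates 1, 3, 5, 6 and 11, so that 4 of 5 lay above every WT library and replicate 3 lay among them. Mean CPM was 6.68 ± 1.30 over 6 WT libraries (SD) and 8.86 ± 1.47 over 5 dIEC libraries, a fold of 1.32 (log2 0.40, SE 0.16, 95% interval 0.05 to 0.74). The unadjusted p was 0.0268 in edgeR and 0.0260 in the two-sided exact permutation test, but the adjusted p was 0.435 and the gene does not count as changed. Scaling by library size alone, with its shift of all genes, gave a log2 fold change of 0.16 (edgeR adjusted p = 0.703).

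Cpe, carboxypeptidase E, which trims the cut peptides, was the most counted of the 10 genes and was lower on average in dIEC. WT libraries ran from 17.4 CPM in replicate 8 through a median of 38.0 to 55.3 in replicate 4. The dIEC libraries lay close together, at 24.9, 24.8, 29.8, 26.0 and 22.1 CPM in replicates 1, 3, 5, 6 and 11, above WT replicate 8 and below the other 5 WT libraries. Mean CPM was 37.3 ± 12.1 over 6 WT libraries (SD) and 25.5 ± 2.78 over 5 dIEC libraries, a fold of 0.682 (log2 -0.55, SE 0.21, 95% interval -1.003 to -0.10, edgeR adjusted p = 0.428). The two-sided exact permutation test gave p = 0.0476. Without WT replicate 8, Cpe passed the test (log2 fold change -0.70, edgeR adjusted p = 0.0328), the only one of the 10 genes to do so, in a fit in which 319 of 15794 genes, or 2.02%, passed. That library was the lowest in Cpe, so leaving it out had to widen the difference, and the pass gives no separate support. Over 11 libraries Cpe followed the markers of gut wall neurons and ran against those of the epithelium, as described further on. With the enteric neuron score as a covariate its log2 fold change was -0.13 (SE 0.14). It was -0.08 (SE 0.14) with the epithelial score, -0.12 (SE 0.21) with the enterocyte score and -0.35 (SE 0.21) with the smooth muscle score. Which cell type the level of Cpe reflects was not tested.

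**Figure D2:**
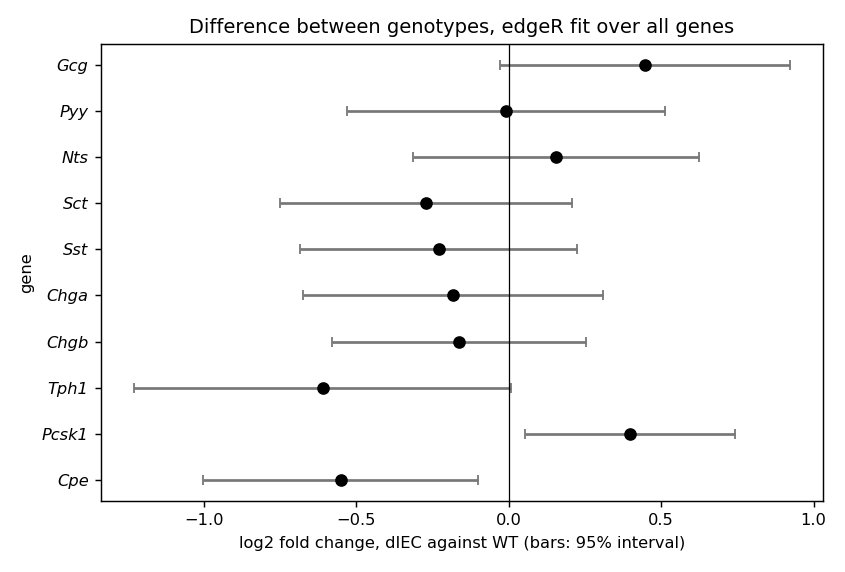
Log2 fold change of each of the 10 genes, dIEC (n = 5) against WT (n = 6), from the edgeR fit over all genes; whiskers are 95% intervals and the vertical line marks 0. The intervals of Pcsk1 (0.05 to 0.74) and Cpe (-1.003 to -0.10) do not reach 0, and none of the 10 passed after adjustment over all genes.

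Ratios of counts within a library do not depend on how libraries are scaled. Chga was used as the denominator, since most enteroendocrine cells make it, and 10 ratios were tested. Gcg to Chga was 0.664, 1.40, 1.25, 1.11, 1.11 and 1.51 in WT replicates 2, 4, 7, 8, 9 and 12, and 1.37, 1.60, 2.02, 2.38 and 2.09 in dIEC replicates 1, 3, 5, 6 and 11. Thus 4 of 5 dIEC libraries lay above every WT library, and replicate 1, with the highest Chga, lay among the WT values. The mean ratio was 1.17 ± 0.297 for the 6 WT libraries (SD) and 1.89 ± 0.404 for the 5 dIEC libraries, a mean log2 difference of 0.71 (two-sided exact permutation p = 0.0130, adjusted over the 10 ratios p = 0.130). Leaving out each library in turn gave log2 differences of 0.55 to 0.82. The ratio of Pcsk1 to Chga was 0.910 ± 0.305 in WT and 1.39 ± 0.319 in dIEC (log2 difference 0.64, two-sided exact permutation p = 0.0390, adjusted p = 0.195).

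Within the L cell pair, Gcg to Pyy averaged 1.39 ± 0.317 in the 6 WT libraries (SD) and 1.93 ± 0.572 in the 5 dIEC libraries, a log2 difference of 0.45 (two-sided exact permutation p = 0.0779, adjusted p = 0.260). It was highest in dIEC replicates 6 and 11, at 2.32 and 2.73, above the WT maximum of 1.89. Chgb to Chga was steady in WT at 1.68 ± 0.168 and wider in dIEC at 1.89 ± 0.655 (two-sided exact permutation p = 0.658). For the remaining 6 ratios, of Pyy, Nts, Sct, Sst, Tph1 and Cpe to Chga, the exact p ran from 0.221 to 0.948. After adjustment none of the 10 ratios passed.

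**Figure D3:**
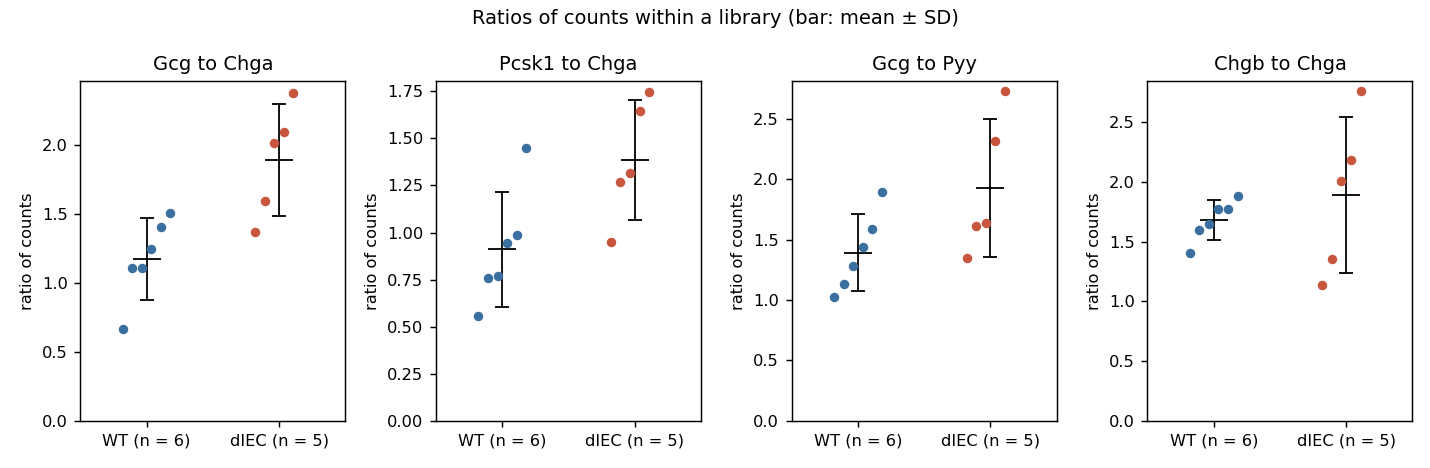
Ratios of counts within each library for Gcg to Chga, Pcsk1 to Chga, Gcg to Pyy and Chgb to Chga, 1 point per library, WT (n = 6, blue) and dIEC (n = 5, red), with the mean and whiskers of 1 SD. For Gcg to Chga, WT libraries lie between 0.664 and 1.51 and dIEC libraries between 1.37 and 2.38.

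Levels of different genes were compared as CPM per kilobase of exon, over all 11 libraries. Cpe (12.2) and Pyy (10.5) came first, followed by Sct (7.43), Sst (7.25), Gcg (7.04), Nts (6.20), Chgb (4.57), Chga (2.65), Pcsk1 (1.37) and Tph1 (0.291). The lower end of this order was firm: Chgb lay above Chga, Chga above Pcsk1 and Pcsk1 above Tph1 in 11 of 11 libraries. Neighbours from Cpe down to Chgb differed by less than the SD of their difference over libraries and kept their order in 6 to 9 of 11. In WT alone Cpe came first (14.3 ± 4.63, SD, n = 6) and Gcg the fifth (6.03 ± 1.97), and in dIEC Pyy came first (10.5 ± 2.95, n = 5), Cpe next (9.78 ± 1.07) and Gcg after it (8.24 ± 1.91). Precision on counts ran from a counting coefficient of variation of 6.25% for Cpe to 26.5% for Tph1.

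The 10 genes did not vary as 1 block over the libraries. Of 45 pairs, 28 had a Pearson r of log2 CPM above 0, the median r was 0.17 and the range -0.39 to 0.89. Only Gcg with Pcsk1 passed, with r = 0.893 (permutation p adjusted over 45 pairs = 0.00585) and Spearman rho = 0.864 (adjusted p = 0.0445). WT replicate 2 was lowest in both genes and dIEC replicate 1 highest in both. Their r was 0.821 without the 2 libraries farthest from the median of Gcg, and 0.852 on deviations from the group means. Pyy with Chgb came next (r = 0.772, rho = 0.764, permutation p adjusted = 0.119 and 0.193), then Sst with Cpe (r = 0.734, rho = 0.618, adjusted p = 0.153 and 0.289).

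**Figure D4:**
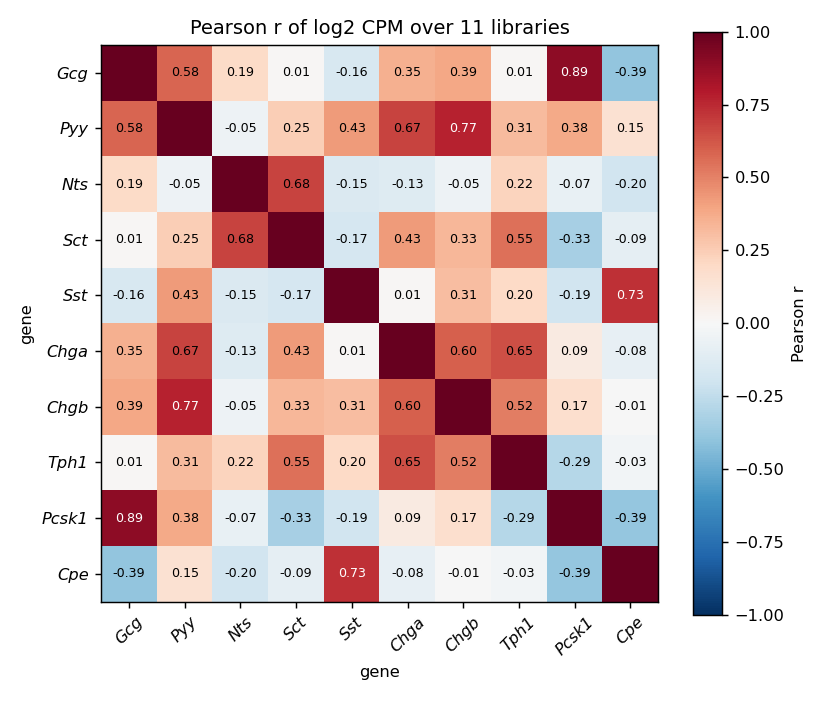
Pearson r of log2 CPM for each pair of the 10 genes over 11 libraries (red positive, blue negative, the value printed in each square). Gcg with Pcsk1 is the strongest square at 0.89, and squares range down to -0.39.

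Genes with the most similar profile over the 11 libraries were looked up among those with a mean of 5 CPM or more, as a description. For both Gcg and Pcsk1 the nearest was H1f0, a linker histone (r = 0.919 and 0.937). Gcg was followed by Ctsc (0.903), and Pcsk1 by Rnf149 (0.913) and Rbm26 (0.906). Cpe was nearest to Rgs5 (0.966), a gene of pericytes and vascular muscle, Ltbp1 (0.963) and Timp2 (0.963), a matrix latency protein and a protease inhibitor. Sst was nearest to Gem (0.894), Sfrp1 (0.856) and Nsmce4a (0.855). The first neighbours of Nts, Chga, Pyy and Chgb were Atp5j2 (0.890), Pan3 (0.880), Hnrnpd (0.831) and Ddx10 (0.813). Sct and Tph1 had a mean under 5 CPM and were not searched.

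The 10 genes were also set against list scores, the mean log2 CPM of marker genes of other cell types, in 50 relations that include the ribosomal share of counts. Both relations whose Pearson r passed after adjustment belonged to Cpe. With the enteric neuron score its r was 0.907 and rho 0.927 (permutation p adjusted over 50 = 0.00225 and 0.0020), r being 0.868 without the 2 farthest libraries and 0.877 on deviations from the group means. With the epithelial score its r was -0.915 and rho -0.964 (adjusted p = 0.00225 and 0.0005), with -0.856 and -0.883 under the same changes. With the absorptive enterocyte score rho passed and r did not (r = -0.799 and rho = -0.855, permutation p adjusted = 0.0610 and 0.0235). The ribosomal share passed with none of the 10 genes.

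**Figure D5:**
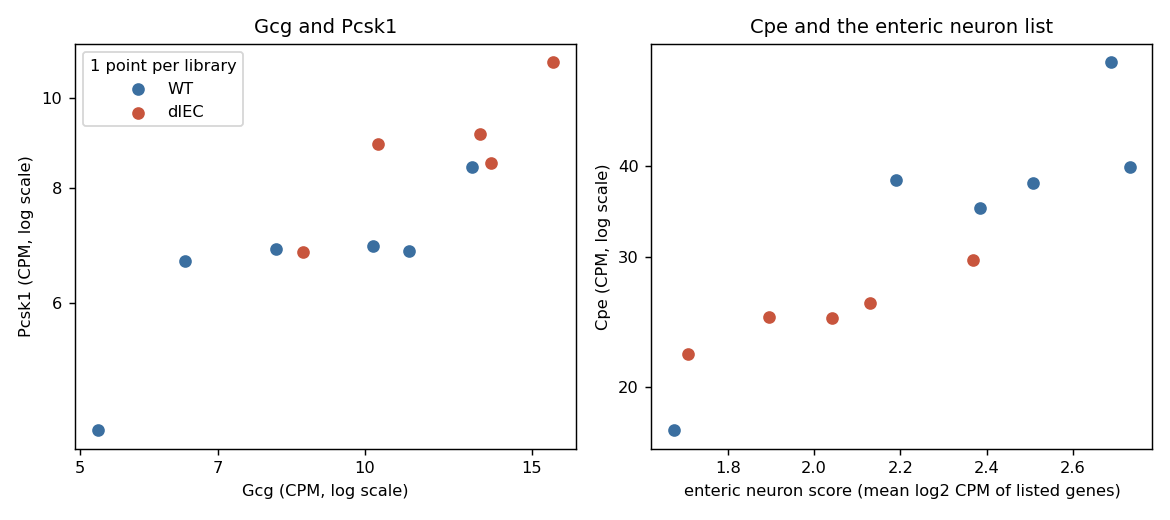
Left, Pcsk1 against Gcg, both in CPM on log axes; right, Cpe in CPM (log axis) against the enteric neuron score, the mean log2 CPM of 13 neuron genes. Each point is 1 library, WT (n = 6, blue) and dIEC (n = 5, red); r is 0.893 on the left and 0.907 on the right, and WT replicate 8 is the lowest point on the right.

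Markers of other cell types leaned in different directions, and no gene of these lists passed adjustment. Over all 11 libraries the list scores did not separate the groups: the two-sided exact permutation p was 0.108 for the epithelial, 0.0736 for the enterocyte, 0.134 for the enteric neuron and 0.234 for the smooth muscle score. The epithelial and enterocyte scores of WT replicate 8 were 7.85 and 6.94, the next highest in WT being 7.43 and 5.98. In dIEC replicates 1, 3, 5, 6 and 11 the epithelial scores were 7.62, 7.68, 7.53, 7.32 and 7.73. Their enterocyte scores were 6.99, 6.74, 6.48, 5.48 and 6.85. The neuron score of that WT library was 1.68, the next lowest in WT was 2.19, and dIEC ran from 1.71 to 2.37. No score was tested without WT replicate 8. All 14 tested epithelial genes had log2 fold changes above 0 (median 0.30) and so had 19 of 19 absorptive enterocyte genes (median 0.70), against 48.8% of all genes. In the epithelial list, Elf3 and Cldn3 had log2 fold changes of 0.38 and 0.35. In the enterocyte list, Slc2a5, a fructose transporter, had 1.23, the disaccharidase Sis 0.83, the retinol binding protein Rbp2 1.20 and the apolipoprotein Apoa4 2.24. Summed enterocyte markers were at 2834 to 11561 CPM in WT and 4238 to 10808 in dIEC, the highest WT value being that of replicate 8. In contrast, 12 of 13 enteric neuron genes were below 0 (median -0.43), among them the synaptic genes Snap25 (-0.75) and Syt1 (-0.66), the adhesion molecule Ncam1 (-0.56) and the neuronal tubulin Tubb3 (-0.59). Summed neuron markers were at 46.9 to 99.7 CPM in WT and 50.01 to 76.2 in dIEC. Smooth muscle genes were below 0 in 12 of 12 (median -0.37), with Myh11 at -0.37 and Mylk at -0.46. Of 4 tested glial genes 3 were below 0 (median -0.34), with Gfap at -0.64 and Cdh19 at -0.59, and the highest was at 0.49. Summed glial markers leaned the other way, at 127 to 282 CPM in WT (median 162) and 144 to 368 in dIEC (median 272). With the enteric neuron score as a covariate the log2 fold changes of Gcg, Pcsk1 and Tph1 were 0.26, 0.30 and -0.82, and with the smooth muscle score 0.22, 0.27 and -0.88. Beyond such fits, the part of these lists in the values of the other genes was not tested.

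Against epithelial RNA the 10 genes together were lower on average in dIEC. Their summed counts were 36.8 ± 10.4 per 1000 counts of the epithelial list for the 6 WT libraries (SD) and 26.7 ± 4.08 for the 5 dIEC libraries (log2 difference -0.41, two-sided exact permutation p = 0.143). Per 1000 counts of the enterocyte list they were 26.2 ± 11.9 and 12.3 ± 5.07 (log2 difference -0.96, two-sided exact permutation p = 0.0952), and per 1000 of the neuron list 1436 ± 321 and 1619 ± 258 (log2 difference 0.19, p = 0.303). Adjusted over these 3 ratios, the exact permutation p was 0.214, 0.214 and 0.303, so none passed. WT replicate 8 had the lowest WT value on both epithelial scales, 17.0 and 6.30. Without it the log2 differences were -0.62 and -1.33 (two-sided exact permutation p = 0.00794 and 0.0159, not adjusted). WT replicate 8 was singled out by its high epithelial score, and epithelial or enterocyte genes are the denominators here. Leaving it out therefore had to widen the differences, and these p-values give no support. With 1 WT library fewer there are fewer assignments of the labels, and 0.00794 is the smallest p they allow. Leaving out each library in turn gave exact permutation p up to 0.267 and 0.181. Cpe held 24.0 to 54.7% of the summed counts, and leaving it out gave -0.21 on the epithelial list and -0.76 on the enterocyte list.

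Among secretory neighbours of enteroendocrine cells, the Paneth and goblet cell lists had medians near 0. The median of the tuft cell list was below 0, close to the -0.17 of the 10 genes. Of 8 Paneth cell genes 5 were above 0 (median 0.02), with the lysozyme Lyz1 at -0.09 and the defensin Defa24 at 0.06. Goblet cell genes had a median of 0.04 over 8 genes, with the mucin Muc2 at 0.02 and Fcgbp at 0.19, and tuft cell genes one of -0.14 over 8, with Ptgs1 at -0.16 and Dclk1 at -0.17. None of the 6 pancreas genes in the table passed the filter, Cela1 reaching 19 counts and the others 6 or fewer.

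Among 12 other enteroendocrine hormones, 5 passed the filter on low counts, and 3 of those were above 0 (median 0.14), against 48.8% of all genes tested. Gal, galanin, which enteric neurons also make, was at 3.57 ± 1.80 CPM in WT and 1.81 ± 0.442 in dIEC (log2 fold change -0.99, SE 0.34, edgeR adjusted p = 0.427, exact permutation p = 0.0433). Because Gal was picked by an unadjusted edgeR p under 0.05, its exact p gives no separate support. Cholecystokinin (Cck) had at most 12 counts in a library and Gip, the K cell hormone, at most 3, and neither was tested. Of the other genes of granule biogenesis and secretion, 21 of 25 were tested and 20 of those had a log2 fold change below 0, against 51.2% of all genes tested. None had an unadjusted edgeR p under 0.05, and the median was -0.29, against -0.01 over all genes. Pam, which amidates peptide ends, was the most counted at 44.3 ± 11.2 CPM in WT and 35.9 ± 4.77 in dIEC (log2 fold change -0.31, SE 0.16, edgeR adjusted p = 0.494). Rab3d, a small GTPase of secretory granules, was at 19.3 ± 1.74 and 18.2 ± 2.34 CPM (log2 fold change -0.09, SE 0.11). Scg5, a chaperone of a prohormone convertase, was under the filter with at most 15 counts in a library and is named after its values were seen. It was at 1.27 to 1.47 CPM in WT and 0 to 1.01 CPM in dIEC, without overlap. Of the genes that passed the filter 0.566% had no overlap, and the share among genes under it was not counted. Any gene without overlap has the smallest possible two-sided exact permutation p, 0.00433. For a gene picked in this way that p, not adjusted, gives no support. Neurons also express many of these granule genes, and the part of neurons in the values of this list was not tested.

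Transcription factors that direct enteroendocrine fate were mostly under the filter. Of 20 listed, 6 were tested, and Neurog3, the factor that commits progenitors to this fate, had at most 6 counts in a library. Of the 6, 5 were below 0 (median -0.17), against 51.2% of all genes tested. Etv1 was at 11.6 ± 2.19 CPM in WT and 7.78 ± 1.58 in dIEC (log2 fold change -0.59, SE 0.16, edgeR adjusted p = 0.427, exact permutation p = 0.00866), and Rfx3, a ciliary and endocrine factor, had a log2 fold change of -0.44 (SE 0.17, edgeR adjusted p = 0.428, exact permutation p = 0.0390). Both genes were picked by an unadjusted edgeR p under 0.05, so their exact p gives no separate support. Etv1 is also made by cells of the muscle wall.

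Sensors of nutrients and stimuli were tested for 11 of 19 genes, with 8 below 0 (median -0.24), against 51.2% of all genes tested. The highest log2 fold change was 0.74. Summed over the list they leaned the other way, at 143 to 453 CPM in WT (median 183) and 222 to 358 in dIEC (median 334). Ffar2, a receptor for short-chain fatty acids found on L cells, was at 2.02 ± 0.499 CPM in WT and 1.28 ± 0.369 in dIEC (log2 fold change -0.67, SE 0.26, edgeR adjusted p = 0.428, exact permutation p = 0.0260). The sodium channel Scn3a had a log2 fold change of -0.46 (SE 0.19, edgeR adjusted p = 0.436, exact permutation p = 0.0346). Ffar2 and Scn3a were likewise picked by an unadjusted edgeR p under 0.05, so their exact p gives no separate support. Of the receptors and clearance enzymes for these hormones, 12 of 25 were tested and 7 were below 0 (median -0.10), and apart from Slc6a4 and Htr3a none had an unadjusted p under 0.05. The highest log2 fold change in that list was 0.86, and its summed CPM had a median of 372 in WT and 652 in dIEC. The GLP-1 receptor Glp1r had at most 6 counts in a library and was not tested.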

How the data were processed

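The authors deposited 1 table of whole-number counts per gene. Per the submitters' processing notes, TopHat2 and the build mm10 were used. The sources used here do not state the counting tool, annotation or strand setting, and per the labels' protocols the kit was directional. One unnamed row (at most 0.0147% of a library) was left out. In R 4.3.3, edgeR 4.0.16 kept 15911 genes (filterByExpr) and fitted dIEC against WT (TMM, robust quasi-likelihood F test, Benjamini-Hochberg over all genes, threshold 0.05); DESeq2 1.42.0 was an alternative. Ratios had 0.5 added to each count on the log2 scale. Correlations used 100000 resamples (scipy 1.17.1). Exon lengths came from GENCODE vM21 (GRCm38), where 99.2% of symbols occur. The scripts were tested on simulated data. The 10 genes, the lists and the tests were chosen with earlier results of these data known. From each other list, genes with an unadjusted p under 0.05 are named (at most 4 by lowest p), otherwise the 2 most counted. Fabp6 and Slc10a2 serve as a tissue check.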

Additional observations from a re-analysis of the deposited data

Results flagged for a closer look

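Values far from the rest of their group were sought in 46 groups of libraries, of which chance would mark about 1 in 20, and 3 were found. Chga in dIEC replicate 1 was at 11.5 CPM, with the other 4 dIEC libraries at 5.07 to 6.46. Tph1 in WT replicate 4 was at 0.937 CPM, with the other 5 WT libraries at 2.12 to 2.81. The ratio of Cpe to Chga in WT replicate 4 was 11.9, with the other WT libraries at 2.39 to 5.00; this library had the highest Cpe and the lowest Chga of its group.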

How the results depend on the processing

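No paired analysis was possible because no replicate number occurs in both groups. The number of genes called over all genes was 1, and became 2 with library size alone, 2 when scaled to epithelial content, 11 with DESeq2 and 1 to 319 when each library was left out in turn, 319 being without WT replicate 8. Of the 10 genes, 0 were called, and 0 to 1 with each library left out, the 1 being Cpe without WT replicate 8. The number with an unadjusted p under 0.05 was 2, became 1 with the epithelial, the enterocyte or the enteric neuron score as a covariate (Tph1 in each, with log2 fold changes of -0.84, -0.80 and -0.82), and was 1 to 3 with each library left out. It was 3 when scaled to epithelial content (Cpe, Sct and Tph1), and stayed at 2 but with other genes under library size alone (Cpe and Tph1) and the smooth muscle covariate (Chga and Tph1), so Pcsk1 was lost in these. Over all 15911 genes that number was 1695, and became 2825 when scaled to epithelial content and 2314 with library size alone. With the epithelial, enterocyte, neuron and smooth muscle covariates it was 574, 512, 567 and 676. It was 1043 to 3315 over all genes with each library left out. The counts among the 10 genes are read only beside these numbers. With the epithelial, the enterocyte and the enteric neuron score as a covariate, Cpe had log2 fold changes of -0.08, -0.12 and -0.13. When the smooth muscle score was the covariate, Chga was at -0.54 (edgeR adjusted p = 0.995). The enterocyte, neuron and muscle covariates, the sum without Cpe and the correlations with library size alone were added after the data were seen.

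The median over the 10 genes was -0.44 when scaled to epithelial content. That scaling moved the median of all genes to -0.29 and library size alone moved it to -0.22, so values under them are read relative to these shifts. Directions changed as follows. Pyy was at 0.082, 0.12 and 0.038 with the epithelial, enterocyte and neuron covariates. It was at -0.19 to 0.14 with each library left out (-0.80 to 0.63 as a difference in CPM). Nts was at -0.017 with library size alone and -0.16 when scaled to epithelial content (-0.12 as a CPM difference with library size alone, and -0.0037 to 1.51 with each library left out), and Sst at 0.047 with the neuron covariate. Log2 ratios to Chga with each library left out were -0.31 to 0.14 for Sct (0.0087 as a linear ratio), -0.18 to 0.26 for Sst, -0.053 to 0.27 for Chgb and -0.45 to 0.018 for Cpe. The summed genes were at -0.62 to -0.33 on the epithelial list and -1.33 to -0.80 on the enterocyte list with each library left out. The median correlation of pairs was 0.28 on deviations from group means and 0.43 with library size alone. The cause of these changes was not tested. The ratio of Pcsk1 to Chga had exact p up to 0.0857 with each library left out, and that of Gcg to Chga up to 0.0286, both before adjustment. Lists were given no value under scalings or covariates made from themselves. Protein-coding counts, Lars2 left out, of 1510296 to 3215574 per library limit the precision, most for Tph1.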
